A study of Rattus norvegicus with 6 samples.

Results

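The small leucine-rich proteoglycans (SLRPs) examined here are the products of Bgn, Dcn, Lum, Fmod, Prelp, Ogn, Aspn and Omd. The members were taken by gene symbol: each of the 8 symbols matched 1 row among the 18420 genes of the deposited RNA-seq table, and the 8 genes were all among the 13250 left after edgeR removed genes with low counts. The cells were primary knee and hip chondrocytes of wild-type male Sprague-Dawley rats, grown to the third passage, and their age was not given in the sources used here. In the TNF-α group (n = 3 libraries) the cells received 10 ng/mL TNF-α and were labelled as taken at 6 h. In the TNF-α+NFL group (n = 3 libraries) the same dose of TNF-α acted for 6 h before Nanofat lysate (NFL), the supernatant of freeze-thawed cells from rat abdominal fat, was given for another 24 h, and the cells were labelled as taken at 30 h. All 6 libraries therefore came from cells exposed to TNF-α, the untreated group was not analysed here, and NFL and the later harvest cannot be told apart. The study describes the replicates as independent biological ones but not whether they came from separate animals or cultures, and p-values measure the spread between these libraries.

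SLRPs are secreted matrix proteins built around a row of leucine-rich repeats. In cartilage and other connective tissues they sit on the surface of collagen fibrils, steer how thick the fibrils grow, and hold growth factors such as TGF-β in the matrix. Biglycan, decorin and asporin form class I, lumican, fibromodulin, PRELP and osteomodulin form class II, and osteoglycin belongs to class III. Biglycan and decorin carry chondroitin or dermatan sulfate chains, lumican, fibromodulin and osteomodulin can carry keratan sulfate, and asporin and PRELP are usually without such chains. Fragments of these proteins accumulate in osteoarthritic cartilage, and soluble biglycan can act on Toll-like receptors.

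The libraries held between 19344893 and 19725135 estimated counts. Within the groups, the variance between 2 libraries was 2.71 to 13.98 times that of counting noise, and the widest pair was TNF-α replicates 1 and 3. Every direction follows the group names of the deposited labels. In the supplementary gene table of the study, where each treated group is set against the untreated one, the difference between the 2 treated groups ran the other way across genes. For the collagenase Mmp13, the study describes PCR that ran as the deposited names do. Its text on the protein blots is mixed. A sentence of its results has NFL raising Mmp13, in a comparison with the untreated group. Its abstract has the blots showing altered Mmp13 restored by NFL, and its discussion has Mmp13 suppressed. The genes that the study's PCR has raised by NFL are Sox9, Col2, ACAN and TGFβR2. Here the log2 fold changes of Sox9, Col2a1, Acan and Tgfbr2 (TNF-α+NFL over TNF-α) were 0.049, 0.23, 0.090 and -0.012. None of them passed an adjusted p of 0.05 in edgeR. The deposited names were kept, and the difference between these sources was not settled. Of 12 chondrocyte markers, 3 (Col11a2, Matn1 and Cnmd) stayed under 1 TPM in every library, Sox9 was between 3.93 and 5.07 TPM, Col2a1 between 7.10 and 9.54 TPM and Acan between 4.47 and 6.12 TPM, whereas Col1a1, the chain of fibrous tissue collagen, was between 1123 and 1401 TPM. TPM is a level that takes account of transcript length and has an equal total in every library. The 12 chondrocyte markers summed to 49.71 to 57.97 TPM in the TNF-α group and 50.97 to 57.46 TPM in the TNF-α+NFL group, and the 7 fibroblast markers to 8696 to 9007 TPM and 9257 to 9311 TPM. The 5 fat cell markers summed to 30.33 to 31.11 TPM and 31.70 to 36.05 TPM, nearly all of it Fabp4. The fibroblast and the fat cell sums in TPM did not overlap between the groups, and their part in the results was not tested. In normalized counts the groups overlapped for Fabp4, with a log2 fold change of 0.12 (edgeR adjusted p = 0.70). Among the 7 fibroblast markers, Thy1 and Postn did not overlap in normalized counts, and the rest did. Thy1 and Postn had log2 fold changes of 0.095 and 0.14 (edgeR adjusted p = 0.33 and 0.22). The sums of 4 synovial lining markers (981 to 1362 TPM, nearly all of it Prg4) and of 3 tendon and ligament markers (83.1 to 87.6 TPM) overlapped. Many markers of other cells were near 0: Ptprc and Aif1 of macrophages, Pecam1, Tek and Vwf of endothelium, Adipoq, Plin1, Lep and Cidec of fat cells, Sp7, Bglap, Ibsp and Alpl of osteoblasts and Alas2 of blood stayed under 1 TPM in every library, and Kdr and Hba-a2 were listed at 0. Others were present: Cd68 of macrophages was between 33.60 and 43.35 TPM, Csf1r reached 1.12 TPM, and Runx2 of osteoblasts was between 5.14 and 5.86 TPM. In bulk samples, fewer cells of a type and less RNA per cell cannot be told apart.

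Start regions from RefSeq (GRCr8) were found for 5 of the 8 members, Lum, Fmod, Ogn, Aspn and Omd. The start lay at the edge of the annotated gene for 2 of them, Fmod and Omd, and the 250 bases before it are shown for these because they stand far apart in RNA level within class II. Capitals mark CAGAC or its reverse complement GTCTG, the letters that SMAD proteins, the messengers of TGF-β, recognise. TGANTCA, the letters of the AP-1 factor, and TATAAA with its reverse complement TTTATA were searched on both strands as well. The Fmod region lies at chr13:48045317-48045566 on the plus strand and the Omd region at chr17:15274871-15275120 on the minus strand, both printed 5′ to 3′.
Fmod: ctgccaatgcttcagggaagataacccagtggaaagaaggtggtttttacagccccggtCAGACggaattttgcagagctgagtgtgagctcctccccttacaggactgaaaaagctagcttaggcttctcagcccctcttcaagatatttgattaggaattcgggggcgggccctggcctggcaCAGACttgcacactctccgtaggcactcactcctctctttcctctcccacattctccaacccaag
Omd: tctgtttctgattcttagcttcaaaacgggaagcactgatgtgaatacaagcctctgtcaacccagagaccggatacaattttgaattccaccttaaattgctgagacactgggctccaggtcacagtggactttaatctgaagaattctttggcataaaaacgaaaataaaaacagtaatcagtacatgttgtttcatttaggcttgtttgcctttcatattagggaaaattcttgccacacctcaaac
CAGAC occurred 2 times before Fmod and 0 times before Omd, and TGANTCA and TATAAA occurred 0 times before either gene. In the regions not shown, CAGAC occurred 3 times for Lum, 1 time for Ogn and 0 times for Aspn. There TATAAA occurred 2 times for Ogn and 0 times for Lum and Aspn, and TGANTCA 0 times for each. Among the 33469 RefSeq start regions of the same length, 42.9% held CAGAC, 6.34% TGANTCA and 12.9% TATAAA. A match describes the letters of these windows only.

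Biglycan RNA dominated the family, and the order of the 8 genes was clear apart from 2 neighbouring pairs. On the TPM scale the mean level over the 6 libraries was 4507 for Bgn, 995 for Fmod, 637 for Prelp, 217 for Ogn, 189.7 for Lum, 85.8 for Aspn, 70.3 for Dcn and 12.3 for Omd. Bgn ranked between place 14 and place 16 of the 18420 genes in every library, Fmod between 142 and 180, and Prelp between 233 and 265. Omd, in contrast, ranked between 7194 and 8219. Between neighbours in this order the library ranges were separate, except for 2 pairs. Aspn and Dcn touched over the 6 libraries, with a lowest Aspn level of 77.05 TPM and a highest Dcn level of 77.83 TPM, although Aspn was above Dcn within each of the 6 libraries. Ogn and Lum overlapped over the 6 libraries, since Ogn ranged from 188 to 235 TPM and Lum from 173 to 206 TPM.

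**Figure D1:**
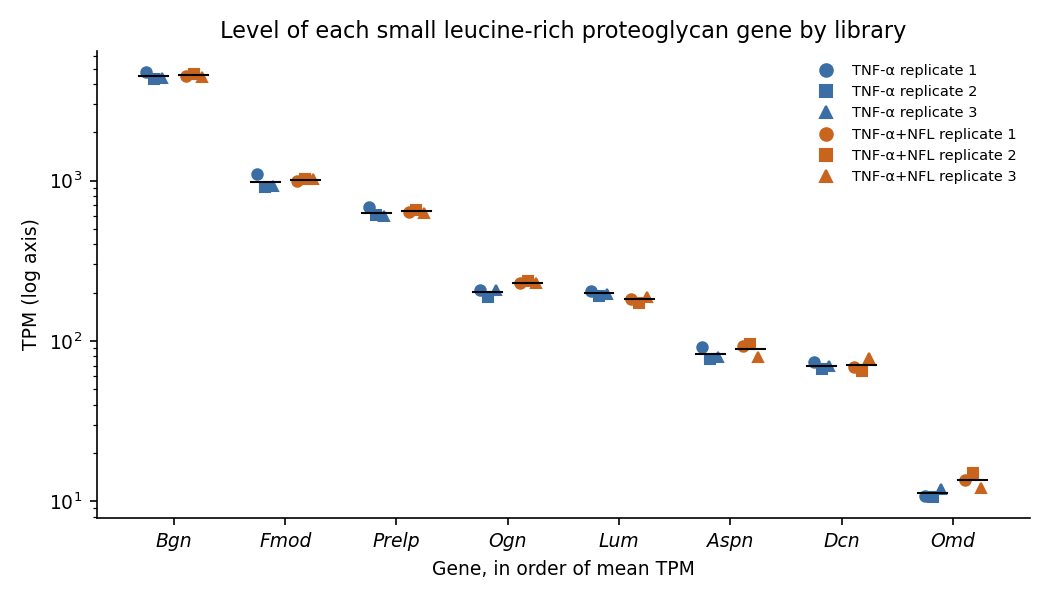
TPM of each gene (log axis) in the 3 TNF-α libraries (blue) and the 3 TNF-α+NFL libraries (orange), with a symbol for each replicate number and a black line at each group mean. Bgn lies at 4294 to 4773 TPM in every library and Omd at 10.65 to 14.93 TPM.

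The 8 genes together took 6645.65 ± 431 TPM (SD, n = 3) with TNF-α alone and 6784 ± 117 TPM (SD, n = 3) with NFL. The highest sum was that of TNF-α replicate 1, at 7139 TPM, whereas TNF-α replicates 2 and 3, at 6346 and 6452 TPM, lay below the 3 TNF-α+NFL libraries, at 6763, 6909 and 6678 TPM. The groups therefore overlapped through that library. Bgn held 67.3% ± 0.43 (SD, n = 3) of this sum with TNF-α alone and 66.9% ± 0.37 (SD, n = 3) with NFL. Fmod held 14.7% and 14.96%, and Prelp 9.50% and 9.48%, in the same order. The remaining 5 genes therefore shared a small part of the family's RNA, in which Dcn, the gene of the best studied SLRP, held 1.054% and 1.041%.

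None of the 8 genes passed an adjusted p of 0.05 between the labelled groups. In the quasi-likelihood test of edgeR, adjusted by Benjamini-Hochberg over the 13250 genes tested, 0 members were higher and 0 were lower with NFL, where 0.408% of all tested genes were called higher, 0.204% lower and 0.611% in either direction. At an unadjusted p under 0.05 there were 2 higher members, Ogn and Omd, against 5.66% of all genes, and 1 lower member, Lum, against 5.45%. By the DESeq2 Wald test, 1 member (Ogn) was higher and 0 were lower at an adjusted p under 0.05, against 1.92% and 1.18%, or 3.1% in either direction, of the 5102 genes to which it gave an adjusted p. The log2 fold changes of the members ran from -0.15 to 0.24 with a median of 0.0085, and the median of all tested genes was -0.0035. The direction was positive for 4 members and negative for 4, and 48.2% of all tested genes were positive. The exact permutation test on 3 against 3 libraries (two-sided) cannot fall below p = 0.1, which was its value for Ogn and Lum.

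**Figure D2:**
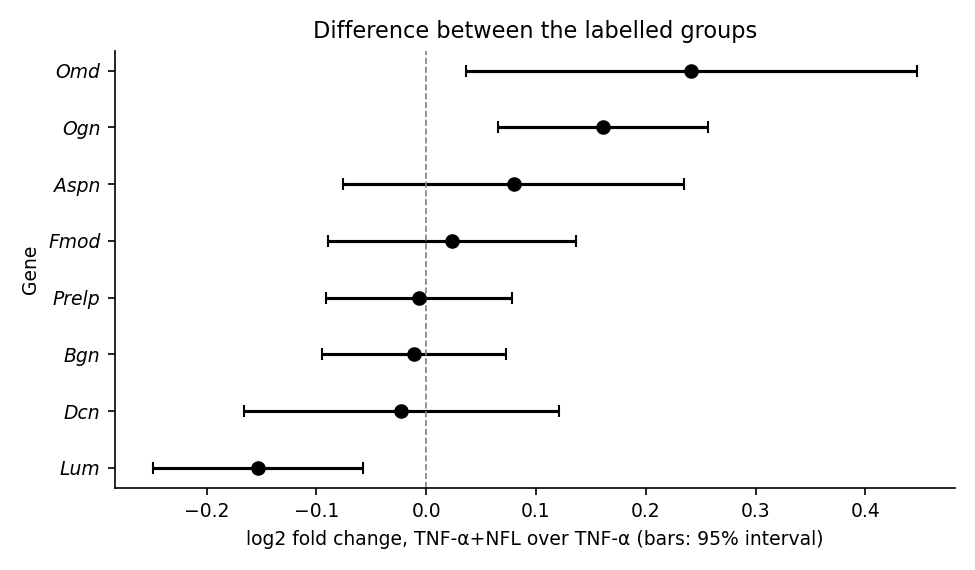
Log2 fold change of each gene (TNF-α+NFL over TNF-α, points) with its 95% interval from the edgeR quasi-likelihood fit, not adjusted for the number of genes. The intervals of Ogn (0.066 to 0.26), Omd (0.036 to 0.45) and Lum (-0.25 to -0.057) lie to one side of 0, and the other 5 include 0.

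Among the class I genes, Bgn, which encodes biglycan, was nearly level. Its level was 4773, 4294 and 4355 TPM in TNF-α replicates 1, 2 and 3 and 4536, 4643 and 4441 TPM in TNF-α+NFL replicates 1, 2 and 3. The highest and the lowest of the 6 values were both in the TNF-α group, and the groups overlapped. In normalized counts Bgn differed by a log2 fold change of -0.011 ± 0.039 (SE; edgeR adjusted p = 0.95), with a 95% interval from -6.39% to 5.16%. Each library held between 106842 and 111227 counts of Bgn, so counting error alone was 0.30% of the mean, whereas the spread of the normalized counts (CPM) was 3.801% in the TNF-α group and 1.68% in the TNF-α+NFL group.

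Dcn encodes decorin, which binds collagen fibrils and TGF-β and limits fibril thickness. It stood at 73.94, 66.91 and 69.16 TPM in the TNF-α replicates and 68.72, 65.04 and 77.83 TPM in the TNF-α+NFL replicates. The lowest and the highest value were both from TNF-α+NFL libraries. Decorin RNA had a log2 fold change of -0.023 ± 0.066 (SE; edgeR adjusted p = 0.95), with a 95% interval from -0.17 to 0.12. Within a library the TPM of Bgn was 57.1 to 71.4 times that of Dcn, so the pair of class I proteoglycans that carry chondroitin or dermatan sulfate was present in very unequal amounts of RNA.

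Aspn encodes asporin, which binds collagen and TGF-β and is known for variants linked to osteoarthritis. It stood at 90.88, 77.05 and 79.71 TPM in the TNF-α replicates and 92.59, 95.17 and 79.57 TPM in the TNF-α+NFL replicates. TNF-α replicate 1 lay with the 2 higher TNF-α+NFL libraries, and TNF-α+NFL replicate 3 lay with the lower TNF-α libraries. Asporin RNA had a log2 fold change of 0.080 ± 0.070 (SE; edgeR adjusted p = 0.75), with a 95% interval from -0.076 to 0.23.

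Among the class II genes, Lum was the only member with lower values in all 3 TNF-α+NFL libraries. Lumican competes with fibromodulin for sites on collagen fibrils and is known for keeping fibrils thin and evenly spaced. Its level was 206, 190.25 and 197 TPM in TNF-α replicates 1, 2 and 3, and 183, 173 and 189 TPM in TNF-α+NFL replicates 1, 2 and 3. The groups did not overlap, although the lowest TNF-α value and the highest TNF-α+NFL value lay close together. The mean CPM of Lum was 174.5 ± 4.55 (SD, n = 3) with TNF-α alone and 157 ± 7.88 (SD, n = 3) with NFL. Its log2 fold change was -0.15 ± 0.044 (SE; edgeR unadjusted p = 0.0043, adjusted p = 0.19), a difference of -10.1% with a 95% interval from -15.8% to -3.89%.

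Fmod encodes fibromodulin, the partner of lumican on the fibril. Its level was 1095, 909 and 926 TPM in the TNF-α replicates and 999, 1024 and 1020.18 TPM in the TNF-α+NFL replicates. TNF-α replicate 1 lay above, and TNF-α replicates 2 and 3 below, the 3 TNF-α+NFL libraries, which were close to each other. Fibromodulin RNA had a log2 fold change of 0.023 ± 0.052 (SE; edgeR adjusted p = 0.92), and the spread of the CPM was 8.39% of the mean with TNF-α alone and 1.18% with NFL. When TNF-α replicate 1 was left out, the fold change of Fmod was 0.095 on the log2 scale (edgeR adjusted p = 0.042), in a fit that called 6.94% of all genes. Without TNF-α replicate 2 it was -0.017 (edgeR adjusted p = 0.98) and the direction turned.

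Prelp encodes a basic SLRP that links collagen to heparan sulfate proteins. It stood at 681, 609.99 and 605 TPM in the TNF-α replicates and 641, 659 and 629 TPM in the TNF-α+NFL replicates. Again TNF-α replicate 1 was the highest of the 6 and the groups overlapped. Its log2 fold change was -0.0065 ± 0.039 (SE; edgeR adjusted p = 0.97), with a 95% interval from -0.092 to 0.078.

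Omd encodes osteomodulin, an SLRP best known from bone and tooth matrix. It was the rarest member, at 10.81, 10.65 and 11.96 TPM in the TNF-α replicates and 13.51, 14.93 and 12.09 TPM in the TNF-α+NFL replicates. On the TPM scale the groups did not overlap, but TNF-α replicate 3 and TNF-α+NFL replicate 3 nearly met, and on the CPM scale they crossed, at 11.2 and 10.9. Of the 8 log2 fold changes that of Omd was the largest, at 0.24 ± 0.095 (SE; edgeR unadjusted p = 0.025, adjusted p = 0.35), with a 95% interval from 0.036 to 0.45. With 186 to 261 counts in a library, counting error alone was 7.05% of the mean in the TNF-α group and 6.48% in the TNF-α+NFL group, and the measured spread of the CPM was 7.88% and 9.95%.

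Ogn, the class III member, encodes osteoglycin, also called mimecan, a small SLRP of bone, cornea and cartilage. Its level was 209, 188 and 209 TPM in TNF-α replicates 1, 2 and 3, and 229, 235 and 229 TPM in TNF-α+NFL replicates 1, 2 and 3. The groups did not overlap, and the spread of the CPM was 5.74% of the mean in the TNF-α group and 1.14% in the TNF-α+NFL group. The mean CPM of Ogn was 284 ± 16.3 (SD, n = 3) with TNF-α alone and 317 ± 3.61 (SD, n = 3) with NFL. Its log2 fold change was 0.16 ± 0.044 (SE; edgeR unadjusted p = 0.0029, adjusted p = 0.16), a difference of 11.8% with a 95% interval from 4.65% to 19.5%. The DESeq2 Wald test gave 0.16 with an adjusted p of 0.036. Ogn and Lum were the 2 members whose groups did not overlap in CPM, in opposite directions. Of all tested genes 16.8% did not overlap, 8.66% being higher and 8.17% lower with NFL.

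In the edgeR fits, members were called at an adjusted p under 0.05 only when TNF-α replicate 1 was left out. The DESeq2 Wald test called Ogn with all 6 libraries. Without TNF-α replicate 1, Ogn and Fmod were higher and Lum was lower at an adjusted p under 0.05 (0.019, 0.042 and 0.045 by edgeR). Of the 13409 genes tested there, 3.43% were called higher, 3.51% lower and 6.94% in either direction. In the 5 fits that left out another library, 0 members were called. Across the 6 fits the log2 fold change of Ogn stayed between 0.12 and 0.20, that of Lum between -0.18 and -0.11, that of Omd between 0.17 and 0.31 and that of Aspn between 0.032 and 0.16. The log2 fold changes of Bgn, Dcn, Prelp and Fmod took both signs across these fits. The fits share libraries with each other.

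**Figure D3:**
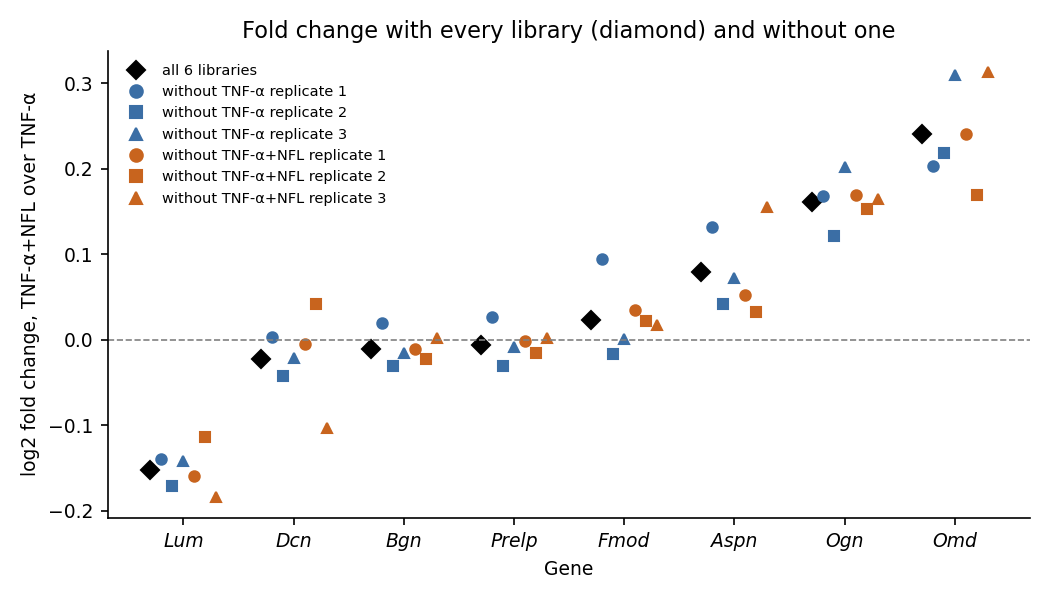
Log2 fold change of each gene (TNF-α+NFL over TNF-α) in the fit on all 6 libraries (diamond) and in each fit without 1 library (coloured symbols). Ogn, Omd and Aspn stay above 0 and Lum stays below 0, whereas Bgn, Dcn, Prelp and Fmod fall on both sides.

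Ratios between 2 members within a library do not depend on how the libraries are scaled. Ogn and Lum were equally abundant in the TNF-α group, with Ogn to Lum TPM ratios of 1.01, 0.988 and 1.06, and Ogn was the more abundant of the pair in the TNF-α+NFL group, with ratios of 1.25, 1.36 and 1.21. The difference was 0.32 on the log2 scale, where the SD of the 3 libraries was 0.053 in the TNF-α group and 0.086 in the TNF-α+NFL group. This pair was singled out after its values were seen, so no test is given. Of the 28 pairs of members, 8 had ratios that did not overlap between the groups, and so did 15.1% of all pairs of tested genes with a TPM above 0 in every library. Pairs that share a gene are not independent. Each of these 8 pairs included Ogn or Lum, with Lum in 6 of them and Ogn in 3. The ratio of Bgn to Ogn was 22.9, 22.8 and 20.8 in the TNF-α replicates and 19.8, 19.7 and 19.4 in the TNF-α+NFL replicates. The ratio of Fmod to Lum, the 2 proteins that share a site on collagen, was 5.32, 4.78 and 4.71 in the TNF-α replicates and 5.44, 5.92 and 5.40 in the TNF-α+NFL replicates, with TNF-α replicate 1 near the TNF-α+NFL values. The ratio of Bgn to Prelp stayed between 7.01 and 7.20 in all 6 libraries.

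**Figure D4:**
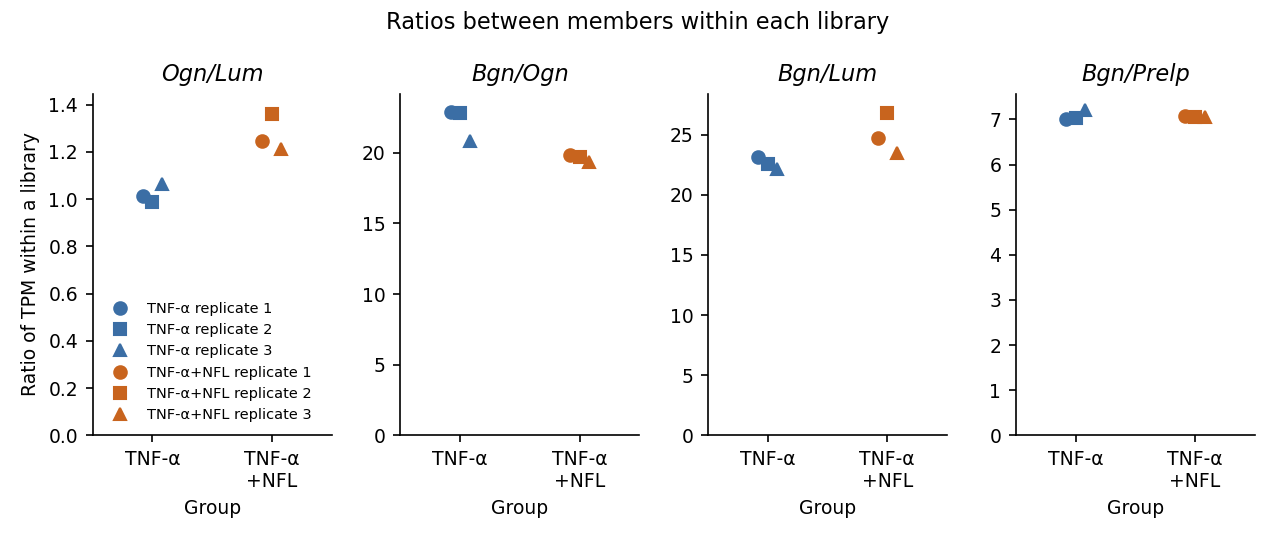
Ratio of TPM between 2 genes within each library (axes start at 0), for the 3 TNF-α libraries (blue) and the 3 TNF-α+NFL libraries (orange). Ogn/Lum lies at 0.988 to 1.06 against 1.21 to 1.36, Bgn/Ogn is lower and Bgn/Lum higher in the TNF-α+NFL libraries without overlap, and Bgn/Prelp overlaps at 7.01 to 7.20.

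Among the 9095 genes with a mean CPM of at least 10, the pattern of Bgn over the 6 libraries was most like that of Prelp, another SLRP. The root mean square difference of the centred log2 CPM was 0.0079 for Prelp, 0.0091 for Tgfbr2, the type II TGF-β receptor, and 0.010 for Csnk1d, a casein kinase. For Fmod the closest genes were Hipk1, Abca3 and LOC100363361, at 0.012 to 0.014. With 6 libraries and small differences, likeness here describes shared library to library variation only.

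Of the 8 genes, 7 stand beside another SLRP gene in the RefSeq gene order of GRCr8, used here for order only. Dcn and Lum are neighbours, with Kera next to Lum. Prelp lies between Optc and Fmod, and Ogn, Omd and Aspn lie in a row, within the span of the centromere gene Cenpp. The log2 fold changes along the last row were 0.16, 0.24 and 0.080. That of Cenpp itself was -0.030 ± 0.22 (SE; edgeR adjusted p = 0.98) at 2.02 to 3.02 TPM. For the pair Dcn and Lum they were -0.023 and -0.15, and for Prelp and Fmod -0.0065 and 0.023. The estimated counts of Bgn, Fmod and Aspn were fractional in 6 of 6 libraries and those of Omd in 4. Part of their reads was therefore not assigned whole to a single gene.

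Of 11 other SLRP family genes, 10 were in the table, 7 were tested and 0 passed an adjusted p of 0.05 in either direction, where 0.611% of all tested genes did. The most abundant were Tsku (tsukushi), at 70.29 to 78.62 TPM, Podn (podocan), at 24.77 to 30.49 TPM, and Podnl1, at 14.71 to 15.79 TPM. Their log2 fold changes were -0.070, 0.14 and 0.0052. The list median was 0.14, and 2 members were higher at an unadjusted p under 0.05, Podn and Optc (opticin, at 1.82 to 3.52 TPM), against 5.66% of all tested genes. Epyc (epiphycan) and Nepn stayed at or under 0.25 TPM.

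The chains that decorate SLRPs are built in the Golgi by a set of transferases. Of 37 genes of glycosaminoglycan chain synthesis, 33 were tested and 0 passed an adjusted p of 0.05, where 0.611% of all tested genes did, with a list median of -0.0026. The most abundant supply or extend the chains: Ugdh, which makes UDP-glucuronic acid, at 271 to 282 TPM, Uxs1, which makes UDP-xylose for the first sugar of the linker, at 207 to 227 TPM, and Chpf, a partner of the chondroitin polymerase, at 179 to 199 TPM. Their log2 fold changes were -0.051, -0.090 and -0.038, with adjusted p of 0.69, 0.44 and 0.81 from the same test. At an unadjusted p under 0.05, 6 members were higher and 2 lower, against 5.66% and 5.45% of all tested genes.

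Of 17 collagen genes of the fibrils and beaded filaments on which SLRPs sit, all were tested and 0 passed an adjusted p of 0.05, where 0.611% of all tested genes did. At an unadjusted p under 0.05, 5 were higher and 0 lower, against 5.66% and 5.45% of all tested genes. Their median log2 fold change was 0.066 and 14 of 17 were positive, against 48.2% of all tested genes. Col1a1, Col5a2 and Col6a2 were the most abundant, at mean levels of 1265, 1072 and 747 TPM, and had log2 fold changes of 0.065, 0.15 and 0.029 (adjusted p = 0.80, 0.080 and 0.87 from the same test). Col2a1, the main collagen of cartilage, had a log2 fold change of 0.23 (adjusted p = 0.22).

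Of 12 proteases that can cut SLRPs, 10 were tested, 0 rose and 1 fell at an adjusted p under 0.05, where 0.408% of all tested genes were higher and 0.204% lower. Mmp13, a collagenase that also cleaves fibromodulin and biglycan, fell from 251 ± 18.9 TPM (SD, n = 3) to 208 ± 7.64 TPM (SD, n = 3), a log2 fold change of -0.31 ± 0.050 (SE; edgeR adjusted p = 0.017), and it was past 0.05 in 1 of the 6 fits that left out 1 library, that without TNF-α replicate 3. The most abundant proteases were Mmp3 (stromelysin), Htra1 and Mmp2, at mean levels of 8029, 1330.3 and 1256 TPM. Their log2 fold changes were -0.14, -0.10 and -0.10 with adjusted p of 0.30, 0.32 and 0.39, and the list median was -0.080.

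Of 23 genes for growth factors and receptors that SLRPs bind, 22 were tested, 4 rose and 1 fell at an adjusted p under 0.05, where 0.408% of all tested genes were higher and 0.204% lower. This list, like the others, was chosen with earlier results of these data known, so its counts are not a test of the list. The risers were the TGF-β ligands Tgfb3 and Tgfb2, the IGF-1 receptor Igf1r and the integrin subunit Itgb1, with log2 fold changes of 0.47, 0.23, 0.28 and 0.20 (adjusted p = 0.00020, 0.017, 0.0056 and 0.028 from the same test). Tlr2, a receptor for soluble biglycan, fell from 231 ± 11.1 TPM (SD, n = 3) to 196 ± 0.441 TPM (SD, n = 3), a log2 fold change of -0.27 (adjusted p = 0.0083). Tgfb3 was past 0.05 in 6 of the 6 fits that left out 1 library, Igf1r in 4, Tlr2 in 3, and Tgfb2 and Itgb1 in 1, that without TNF-α replicate 1. Tlr4, the other biglycan receptor, had a log2 fold change of -0.0010 (adjusted p = 1.00). The most abundant gene of the list was Ccn2 (also Ctgf), at 4004 to 4790 TPM, with a log2 fold change of 0.16 (adjusted p = 0.075).

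**Figure D5:**
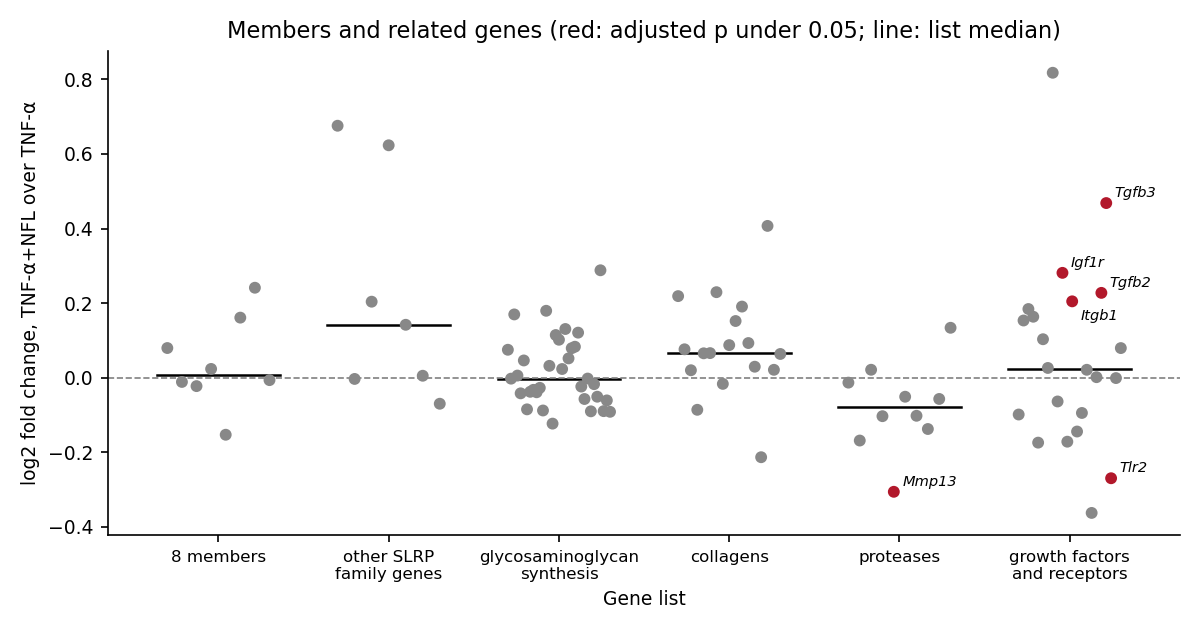
Log2 fold change (TNF-α+NFL over TNF-α) of each tested gene of the 8 members and of 5 related lists, with red points for genes at an adjusted p under 0.05 and a line at each list median. Red points are found among the proteases (Mmp13) and the growth factors and receptors (Tgfb3, Igf1r, Tgfb2, Itgb1 and Tlr2), and 0 of the 8 members are red.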

How the data were processed

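The 6 libraries were sequenced as single-end 50-base reads of oligo(dT)-selected RNA. The authors deposited 1 table with estimated counts, FPKM and TPM for each library, and the submitters' processing notes name HISAT2 2.0.4, Bowtie2 2.2.5, RSEM 1.2.12 and Rnor_6.0. Whether counting used strand is not given in the sources used here. Estimated counts were rounded and tested in edgeR 4.0.16 (R 4.3.3) with filterByExpr, TMM scaling and the robust quasi-likelihood test, adjusted by Benjamini-Hochberg over 13250 genes. CPM denotes counts scaled by the TMM library size. Standard errors and 95% intervals came from the F statistic and its degrees of freedom. TPM served for levels only. DESeq2 1.42.0 and limma 3.58.1 gave alternatives, among 16 settings. The steps were tested on simulated data.

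The members and lists were chosen with earlier results of these data known. Named genes were the 8 members, from each related list those past an adjusted p of 0.05 and the 3 of highest mean TPM, and the 3 genes closest in pattern to each of the 2 most abundant members. Other genes, among them Optc, Epyc, Nepn, Col2a1, Tlr4, Cenpp and the markers given with values, were named after their values were seen. Gene identifiers were matched to RefSeq (GRCr8) for 17068 genes. Same-numbered replicates did not deviate together, with correlations of 0.030, -0.024 and 0.10, so the numbers were not taken to pair libraries.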

Additional observations from a re-analysis of the deposited data

How the results depend on the processing

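Ogn, Omd and Aspn kept a positive and Lum a negative log2 fold change under all 16 alternatives, with adjusted p from 0.019 to 0.52 for Ogn, 0.045 to 0.61 for Lum, 0.27 to 0.76 for Omd (not given by DESeq2) and 0.35 to 0.97 for Aspn. The DESeq2 Wald test called Ogn (0.16, adjusted p = 0.036), so that 1 member was higher. At an unadjusted p under 0.05, 2 members were higher and 1 was lower. With limma on log2(TPM + 1) and on log2(TPM + 0.1) the direction turned for Bgn (0.022 and 0.022), Dcn (0.0079 and 0.0079) and Prelp (0.027 and 0.028), where the median of all genes was 0.024 and 0.027. Leaving out 1 library gave -0.031 to 0.020 for Bgn, -0.10 to 0.041 for Dcn, -0.031 to 0.027 for Prelp, -0.017 to 0.095 for Fmod, 0.12 to 0.20 for Ogn and -0.18 to -0.11 for Lum, with 0 to 2 members higher and 0 to 1 lower. The direction turned for Bgn without TNF-α replicate 1 (0.020) or TNF-α+NFL replicate 3 (0.0024), for Prelp without the same libraries (0.027 and 0.0016), for Dcn without TNF-α replicate 1 (0.0029) or TNF-α+NFL replicate 2 (0.041), and for Fmod without TNF-α replicate 2 (-0.017). Without TNF-α replicate 1, Ogn (0.17), Fmod (0.095) and Lum (-0.14) passed 0.05. The cause was not tested. Of all genes, 54 were higher and 27 lower in the reported fit, 84 and 48 with no filter on low counts, 98 and 60 by DESeq2, 24 and 8 by limma with either TPM pseudocount, 3 and 3 by limma on log2(FPKM + 1), 460 and 470 without TNF-α replicate 1, and 5 to 31 and 0 to 10 without another library. With the replicate number as a block, 25 genes were higher and 9 lower, 0 members were called, and Ogn was at 0.16 (adjusted p = 0.23) and Lum at -0.15 (adjusted p = 0.22). The block changed no call on a member. Omd had the lowest depth of the members, at 186 to 261 counts a library, where counting error was 6.48% to 7.05% of the mean.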
